A study of Mus musculus with 6 samples.

Results

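Genes that mark regenerating intestinal epithelium, and genes of the YAP-TEAD transcription machinery, were examined in irradiated mouse intestine with and without free ubiquitin (free Ub). The set holds 10 genes: Clu, Ly6a, Anxa1, Areg, Ereg, Yap1, Tead1, Tead4, Vgll1 and Amotl2. They were chosen by name, with the results of these arrays already known, and Vgll1 was selected because its signal was lower with free Ub. Of the 10 genes, 7 have a probe that carries their symbol, with 13 probes between them, out of 19057 named genes on the arrays. Clu, Ly6a and Areg had no probe under their symbols in the annotation used and were not analysed here.

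Each of 6 Illumina MouseWG-6 v2 arrays measured the intestine of a separately labelled sample from male C57 mice, 4 weeks old by the labels. All animals received 7 Gy of radiation to the whole body, and 3 samples followed PBS (the saline control) and 3 followed free Ub. The labels place the injection after the radiation and the tissue collection at 3.5 days, while the study's own text differs on the age, the order and the time. No unirradiated intestine was on the arrays, so every comparison is between irradiated groups. The values are signals on a log2 scale, and a probe is called at the floor where it lay within 0.01 of the lowest value of its array, which held for 32.2% to 33.7% of all probes. A floor value gives no level, so no fold change is given against a group at the floor. The tissue label was checked against 12 epithelial markers: Vil1, the microvillus protein villin, lay between 12.49 and 12.87 on the 6 arrays, and Krt20, Lgals4 and Krt8 lay above 13 on each. Epcam, a surface marker of epithelial cells, read 4.34 to 4.87, and the enterocyte fatty acid carrier Fabp2 was at the floor on 3 arrays. The arrays are of whole intestine, in which fewer cells of a type and less RNA per cell cannot be told apart.

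YAP (Yap1) and its relative TAZ (Wwtr1) are coactivators without a DNA-binding domain of their own, and they switch on genes by binding TEAD transcription factors. The Hippo kinases phosphorylate YAP and TAZ and keep them out of the nucleus, while vestigial-like proteins such as Vgll1 and Vgll4 bind TEAD at the surface that YAP uses. After radiation the intestinal crypts lose much of their stem cell pool, and YAP activity is known to accompany a transient fetal-like epithelium marked by Clu, Ly6a and Anxa1. The EGF receptor ligands Areg and Ereg are YAP targets that sustain crypt growth during repair.

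TEAD proteins bind the letters GGAATG, or CATTCC on the other strand. The 250 bases before the annotated start were taken from RefSeq (GRCm38.p6), which held this stretch for 5 of the 10 genes: Anxa1, Areg, Yap1, Vgll1 and Amotl2. They are shown for 4 of these genes because each holds those letters once and because the arrays gave these genes contrasting values. Capitals mark the match, and each sequence reads 5′ to 3′ on the strand of the gene.
Vgll1 promoter, chrX:57087856-57088105 (plus strand): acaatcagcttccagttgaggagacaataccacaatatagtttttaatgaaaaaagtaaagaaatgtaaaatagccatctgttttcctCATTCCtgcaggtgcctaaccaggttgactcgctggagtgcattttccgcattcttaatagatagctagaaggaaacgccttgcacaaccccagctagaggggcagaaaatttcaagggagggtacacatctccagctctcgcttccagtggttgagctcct
Anxa1 promoter, chr19:20390672-20390921 (minus strand): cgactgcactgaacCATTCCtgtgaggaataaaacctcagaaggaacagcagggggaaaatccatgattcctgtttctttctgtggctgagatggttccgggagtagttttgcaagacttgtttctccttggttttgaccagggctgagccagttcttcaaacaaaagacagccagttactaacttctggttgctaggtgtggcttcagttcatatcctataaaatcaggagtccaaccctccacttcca
Yap1 promoter, chr9:8004597-8004846 (minus strand): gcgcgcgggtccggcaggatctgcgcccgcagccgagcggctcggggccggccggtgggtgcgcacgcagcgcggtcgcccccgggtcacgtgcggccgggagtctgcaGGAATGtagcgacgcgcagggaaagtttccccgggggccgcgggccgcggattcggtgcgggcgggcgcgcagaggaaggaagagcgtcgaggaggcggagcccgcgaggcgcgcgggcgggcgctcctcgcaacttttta
Amotl2 promoter, chr9:102717554-102717803 (plus strand): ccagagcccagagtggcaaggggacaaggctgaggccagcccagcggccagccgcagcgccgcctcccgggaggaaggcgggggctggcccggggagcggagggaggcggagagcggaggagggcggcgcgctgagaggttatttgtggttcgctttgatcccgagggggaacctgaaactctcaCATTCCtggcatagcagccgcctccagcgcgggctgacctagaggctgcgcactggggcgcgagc
The matches start 162 bases before the start of Vgll1, 236 before Anxa1, 141 before Yap1 and 65 before Amotl2. Of 32851 promoter stretches of this length, 12.6% hold GGAATG on either strand. The AP-1 letters TGANTCA, also searched on both strands, stand in 6.75% of all stretches and in none of the 5. The Areg stretch holds neither. A match describes the letters and does not show binding, and genes with the same letters had unlike values on the arrays.

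The member genes were dim as a group. Of the 13 probes, 10 were at the floor on at least 1 array, and the brightest probes of Yap1, Tead1 and Amotl2 were the 3 above it on all 6. Among all named genes, 62.6% were above the floor on all 6 arrays. Each gene is described by its probe with the highest mean, with the other probes beside it.

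**Figure D1:**
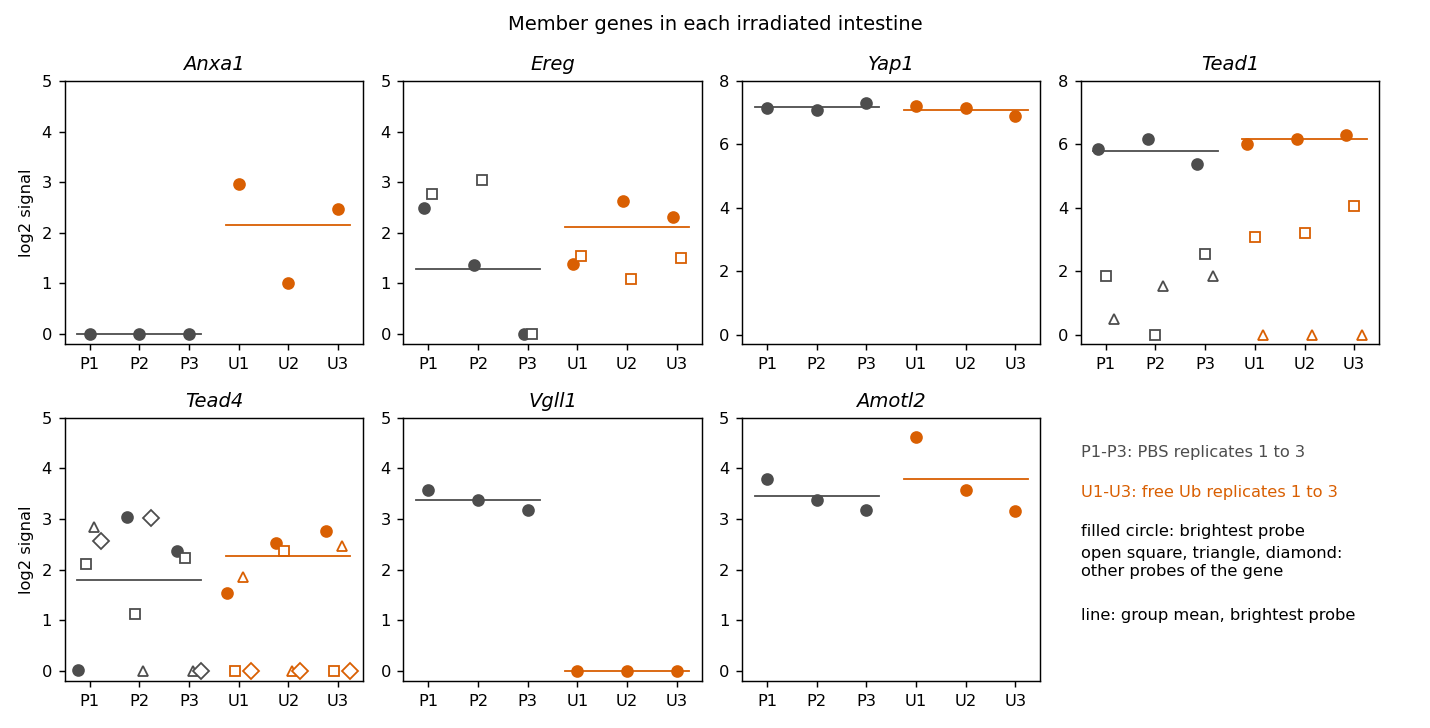
Log2 signal of the 7 measured member genes in each sample, with P1 to P3 for the PBS replicates (dark) and U1 to U3 for the free Ub replicates (orange). Filled circles are the brightest probe of a gene, open symbols its other probes, and lines the group means of the brightest probe. Vgll1 lies between 3.17 and 3.58 in the PBS samples and at the floor in the free Ub samples, Anxa1 shows the opposite placement at lower signal, and the Yap1 values of both groups overlap near 7.

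Anxa1, which encodes the phospholipid-binding protein annexin A1, was listed at the floor in all 3 PBS samples. It read 2.97, 1.00 and 2.48 in free Ub replicates 1, 2 and 3, a mean of 2.15 ± 1.03 (SD, n = 3). The groups did not overlap, but all values were dim. Its adjusted p in limma was 0.709 over all 45281 probes, so the difference did not pass the test.

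Ereg encodes epiregulin, a ligand of the EGF receptor. The brighter of its 2 probes read 2.50, 1.36 and the floor in PBS replicates 1 to 3, and 1.39, 2.62 and 2.31 in the free Ub replicates. The difference of free Ub minus PBS was 0.82 on the log2 scale, with a 95% interval from -1.20 to 2.84. The second probe differed in the other direction, at -0.56, with an interval that reached up to 1.89. Both probes overlapped between the groups, and neither passed the test (limma adjusted p = 0.872 and 0.979).

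Yap1, the coactivator itself, was measured by 1 probe. It read 7.13, 7.07 and 7.31 in the PBS replicates and 7.21, 7.16 and 6.88 with free Ub, with means of 7.17 ± 0.12 and 7.08 ± 0.18 (SD, n = 3 each). The groups overlapped, and only free Ub replicate 3 lay below every PBS value. The difference was -0.09, with a 95% interval from -0.40 to 0.22 (limma adjusted p = 0.955), and without free Ub replicate 3 it was 0.01.

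Tead1, a TEAD family member that gives YAP its contact with DNA, had 3 probes that differed in direction. The brightest read 5.86, 6.17 and 5.37 in the PBS replicates and 6.02, 6.18 and 6.30 in the free Ub replicates. That probe overlapped between the groups, with a difference of 0.36 and a 95% interval from -0.26 to 0.99 (limma adjusted p = 0.872). A dimmer probe read 1.84, the floor and 2.54 with PBS and 3.08, 3.20 and 4.06 with free Ub. The third probe read 0.49, 1.54 and 1.85 with PBS and lay at the floor in every free Ub sample. Both dim probes separated the groups, in opposite directions, and neither passed the adjusted test (limma adjusted p = 0.872 and 0.821).

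Tead4, another TEAD factor, was near the floor by all 4 of its probes. The brightest read the floor, 3.03 and 2.37 in the PBS replicates and 1.54, 2.53 and 2.76 with free Ub, a difference of 0.47 with an interval that spanned 0 and reached 2.94 (limma adjusted p = 0.979). The sign of that difference rested on PBS replicate 1, and without it the value was -0.43. With the mean of its 4 probes in place of the brightest it was -0.48. No direction can be given for Tead4.

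Vgll1, the TEAD cofactor chosen for its lower signal, read 3.58, 3.38 and 3.17 in PBS replicates 1, 2 and 3, with a mean of 3.38 ± 0.20 (SD, n = 3). Its probe was listed at the floor in all 3 free Ub samples. These values chose the gene and are given as a description with no test. The same placement, above the floor in every PBS sample and at the floor in every free Ub sample, held for 64 of the 19057 named genes (0.336%). The reverse placement, which Anxa1 had, held for 42 genes (0.220%). Vgll1 was measured by 1 dim probe, with a mean of 1.69 over the 6 arrays. Dim probes often spread widely: the median SD within groups was 0.84 for probes with a mean of 2 to 4 and 0.20 for probes with a mean above 6. The Vgll1 mean of 1.69 includes the 3 floor values, and its PBS mean of 3.38 ± 0.20 (SD, n = 3) lay within the dimmer of these ranges.

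Amotl2 encodes an angiomotin-like junction protein that holds YAP in the cytoplasm and is itself switched on by YAP and TEAD. It read 3.80, 3.37 and 3.19 in the PBS replicates and 4.62, 3.57 and 3.16 with free Ub. The groups overlapped, and free Ub replicate 1 alone lay above the PBS range. The difference of 0.33, with an interval from -0.84 to 1.51 (limma adjusted p = 0.953), became -0.09 without that sample.

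By the brightest probe, 5 of the 7 measured members were higher with free Ub and 2 were lower, and the groups did not overlap for Anxa1 (higher) and Vgll1 (lower). Among all named genes, 3.74% were higher and 5.02% lower without overlap. Vgll1 was the member under an adjusted p of 0.05, where 0.0530% of all probes were, and its place there follows from how it was chosen. Anxa1, higher, was the other member under an unadjusted p of 0.05, beside 2.34% of all named genes higher and 3.40% lower at that threshold.

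The wider pathway was followed in 5 lists that together hold 90 genes, of which 82 had a named probe. Vgll1, selected on this contrast, is left out of the counts in the rest of this paragraph. At an unadjusted p under 0.05 in limma, 3 of the 81 others were higher (Anxa1, Ctse and Nt5e) and 2 were lower (Vgll4 and Wwc2) with free Ub, and 0 passed the adjusted test. Without overlap between the groups, 4 genes were higher and 5 lower. These counts stand beside the shares among all named genes given above, and the lists were drawn up with results of these arrays known.

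Of the 10 genes for YAP, TAZ, TEAD and vestigial-like proteins, Vgll1 included and all measured, 3 were higher and 7 lower. The median difference was -0.31, where the median of all named genes was -0.00. The list holds Vgll1, and its median was -0.09 with values under 4 raised to 4, -0.18 with array weights, -0.21 and -0.14 without PBS replicates 2 and 3, and -0.11 and -0.045 without free Ub replicates 2 and 3. Vgll4, which competes with YAP for TEAD, read 6.47, 6.45 and 6.49 in the PBS replicates and 6.14, 6.39 and 6.04 with free Ub. The groups did not overlap, with a difference of -0.28 and a 95% interval from -0.55 to -0.01 (limma adjusted p = 0.872). It stayed under the unadjusted threshold without free Ub replicate 2 and was above it when any of the other samples was left out.

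Tead3 read 4.71, 4.40 and 4.21 with PBS and 3.46, 4.01 and 4.06 with free Ub. All free Ub values lay below the PBS values, the difference was -0.60, and the limma adjusted p was 0.872. Tead2 ranged from 4.51 to 6.29 with PBS and from 3.97 to 5.97 with free Ub. Wwtr1, the gene for TAZ, read 5.55, 5.04 and 4.85 with PBS and 5.26, 5.42 and 5.71 with free Ub, and the groups overlapped (difference 0.32, limma adjusted p = 0.872). Vgll2 and Vgll3 also overlapped.

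The mean log2 signal over these 10 genes was 4.36 to 4.62 in the PBS samples and 3.90 to 4.20 with free Ub, without overlap. Without Vgll1 the 9 others gave 4.45 to 4.76 and 4.34 to 4.67, which overlapped. The list mean separated the groups only with Vgll1, the gene chosen for its difference.

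Of 24 Hippo kinases and regulators, 23 were measured, 13 higher, 9 lower and 1, the kinase gene Lats1, at the floor on all 6 arrays by both of its probes. The median difference was 0.07, and it was 0.16 without free Ub replicate 1 and -0.09 without free Ub replicate 3. Wwc2, a relative of the Hippo activator KIBRA, was the member at an unadjusted p under 0.05. It read 7.64, 7.79 and 7.93 in the PBS replicates and 7.40, 7.20 and 7.08 with free Ub. The groups did not overlap, with means of 7.79 ± 0.15 and 7.23 ± 0.16 (SD, n = 3 each), a difference of -0.56 and a 95% interval from -0.88 to -0.25. The limma adjusted p was 0.568, and with each sample left out in turn the unadjusted p lay between 0.00620 and 0.0269. A second Wwc2 probe overlapped between the groups, with a difference of -0.17, and a further, dim probe also overlapped. With the mean of its probes the difference was -0.37, and Wwc2 was no longer under the unadjusted threshold.

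Taok3, a kinase upstream of the Hippo kinases, gave 7.94 ± 0.14 with PBS and 7.61 ± 0.20 with free Ub. The polarity protein gene Scrib gave 7.44 ± 0.21 and 7.18 ± 0.11. Neither overlapped and neither passed (limma adjusted p = 0.872 each), and their other probes differed in direction. For Taok3 these gave -0.11 and 0.14, and for Scrib -1.04 and 1.97 with a further probe at the floor on all arrays. Mob1a, the cofactor of the LATS kinases, read 7.08 ± 0.33 with PBS and 7.62 ± 0.27 with free Ub and overlapped (limma adjusted p = 0.872). Lats2, both a Hippo kinase and a YAP target, was dim at 2.35 ± 1.06 and 2.15 ± 0.77.

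**Figure D2:**
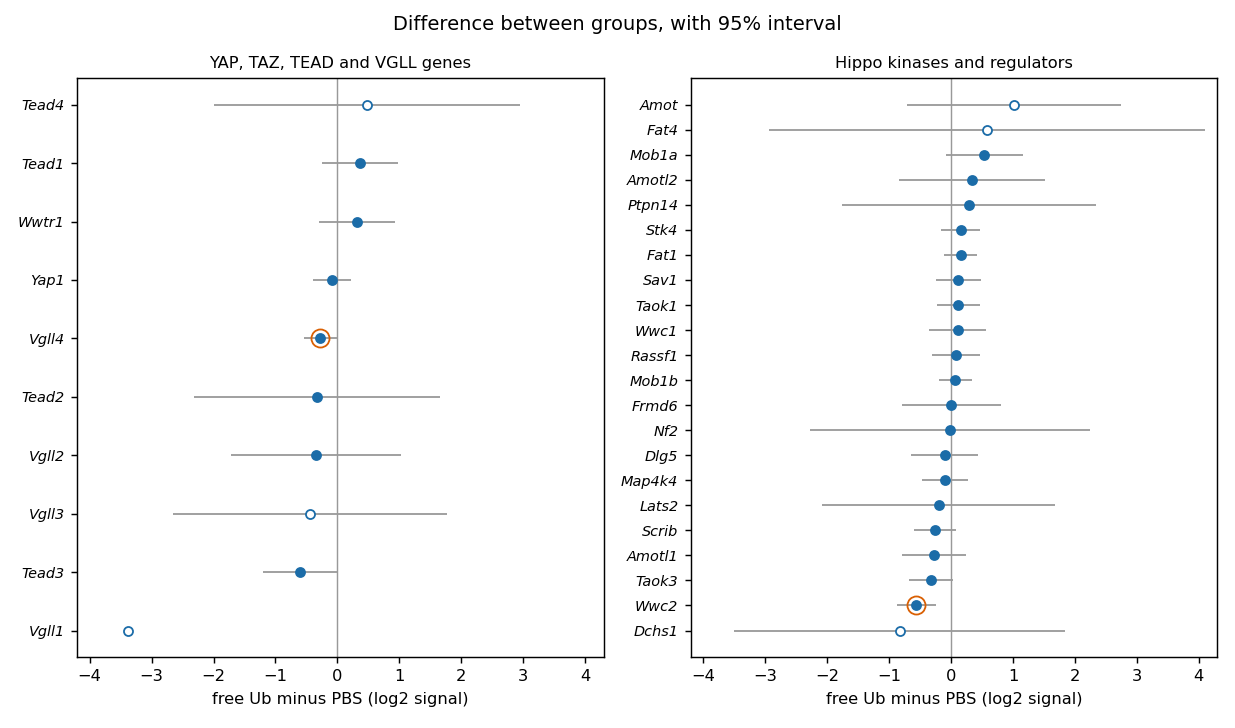
Difference of free Ub minus PBS in log2 signal for the genes for YAP, TAZ, TEAD and vestigial-like proteins (left) and for Hippo kinases and regulators (right), by the brightest probe of each gene. Bars are 95% intervals from limma, open points are genes at the floor on at least 1 array, points without a bar had a whole group at the floor, and orange rings mark an unadjusted p under 0.05. Vgll1 carries no ring because this contrast chose it, and Lats1, at the floor throughout, is not drawn. Vgll4 and Wwc2 are the ringed genes, at -0.28 and -0.56.

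Genes that YAP and TEAD switch on gave no common direction: of 24 listed targets, 23 were measured, 13 higher and 10 lower, with a median difference of 0.08 that ranged from -0.03 without free Ub replicate 3 to 0.13 without free Ub replicate 1. Nt5e, which encodes the ectonucleotidase CD73, was the target at an unadjusted p under 0.05. Its brightest probe read 9.25, 8.66 and 8.37 in the PBS replicates and 9.44, 10.01 and 9.81 with free Ub. That is 8.76 ± 0.45 against 9.75 ± 0.29 (SD, n = 3 each), a difference of 0.99 with a 95% interval from 0.23 to 1.76 (limma adjusted p = 0.797). The second Nt5e probe read 6.32, 6.33 and 5.61 with PBS and 6.94, 6.85 and 6.85 with free Ub, a difference of 0.79 (limma adjusted p = 0.763). Both probes were higher in every free Ub sample than in every PBS sample. The brightest probe was no longer under the unadjusted threshold without PBS replicate 2 or 3 or without free Ub replicate 2 or 3, where the difference lay between 0.80 and 0.96.

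Ccn2 and Ccn1, the secreted matricellular proteins commonly used to read YAP activity, overlapped between the groups. Ccn2 read 7.29, 6.59 and 6.28 in the PBS replicates and 6.07, 6.25 and 6.44 with free Ub, a difference of -0.47 (limma adjusted p = 0.872), and its second probe gave -0.35. The PBS order of Ccn2 was also that of 8 smooth muscle markers, whose mean was 8.07, 7.46 and 6.57 in PBS replicates 1, 2 and 3. In free Ub replicates 1, 2 and 3 the marker mean was 7.92, 7.53 and 7.57, highest in the sample where Ccn2 was lowest. The part of smooth muscle in the Ccn2 values was not tested. Ccn1 gave 2.55 ± 0.81 with PBS and 2.92 ± 0.35 with free Ub. Ankrd1, a further target, gave 2.95 ± 0.59 and 2.67 ± 0.38.

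Rbms3, an RNA-binding protein gene, gave 5.20 ± 0.27 with PBS and 4.82 ± 0.34 with free Ub and overlapped. Ccdc80, a matrix protein gene, was at the floor in PBS replicates 1 and 2 and read 2.64 in PBS replicate 3, against 2.36, 3.21 and 3.73 with free Ub. The list mean over the 23 targets was 4.07 to 4.14 with PBS and 4.20 to 4.46 with free Ub, without overlap. Over the 16 targets above the floor on all 6 arrays it was 5.44 to 5.86 and 5.57 to 5.79, and the groups overlapped.

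Of 25 genes that mark regenerating epithelium, 19 were measured, 8 higher and 11 lower, with a median difference of -0.05. With a sample left out the median ranged from -0.09 (without free Ub replicate 3) to 0.07 (without replicate 1 of either group). It was 0.15 with array weights. Anxa1 and Ctse were the members at an unadjusted p under 0.05, both higher. Ctse, the aspartic protease cathepsin E, read 9.27, 9.40 and 9.45 with PBS and 9.84, 9.98 and 9.57 with free Ub. The groups did not overlap, and the difference was 0.42 with a 95% interval from 0.08 to 0.76 (limma adjusted p = 0.825). It left the unadjusted threshold when replicate 1 or 2 of either group was left out. Its other 2 probes overlapped between the groups.

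The cytokine gene Il33 read 7.31, 7.97 and 8.19 in the PBS replicates and 6.84, 7.36 and 7.01 with free Ub, a difference of -0.75 that did not pass (limma adjusted p = 0.872). Sprr1a, a cornified envelope gene that appears in damaged gut, was at the floor in the PBS samples and in free Ub replicate 1 and read 2.12 and 2.24 in free Ub replicates 2 and 3. The related annexin genes Anxa2 and Anxa3 were above the floor on all arrays. Anxa2 gave 13.68 ± 0.25 with PBS and 13.75 ± 0.04 with free Ub, and Anxa3 gave 8.70 ± 0.22 and 8.65 ± 0.13.

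Of 12 EGF family ligands and receptors, 11 were measured, 5 higher and 6 lower, and none was under an unadjusted or adjusted p of 0.05 in limma. The median difference was -0.01, and it was 0.07 to 0.26 with each sample left out in turn. Epgn, the ligand epigen, was the gene whose groups did not overlap, with 3.41 ± 0.14 for PBS and 3.84 ± 0.51 for free Ub, and its other probe overlapped. Hbegf, a heparin-binding ligand, gave 7.10 ± 0.13 with PBS and 7.30 ± 0.14 with free Ub, with a 95% interval of the difference from -0.08 to 0.47. Nrg1, a ligand of the related ERBB receptors, gave 5.26 ± 0.21 and 4.64 ± 0.53.

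The remaining ligands showed no separation. Tgfa was at the floor in every PBS sample and in free Ub replicate 2, Btc gave 5.29 ± 0.15 with PBS and 5.14 ± 0.77 with free Ub, and Egf gave 3.09 ± 1.27 and 3.09 ± 1.11. The receptor Egfr read 6.61 ± 0.32 with PBS and 6.54 ± 0.38 with free Ub, and Erbb2 8.12 ± 0.06 and 7.95 ± 0.18.

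**Figure D3:**
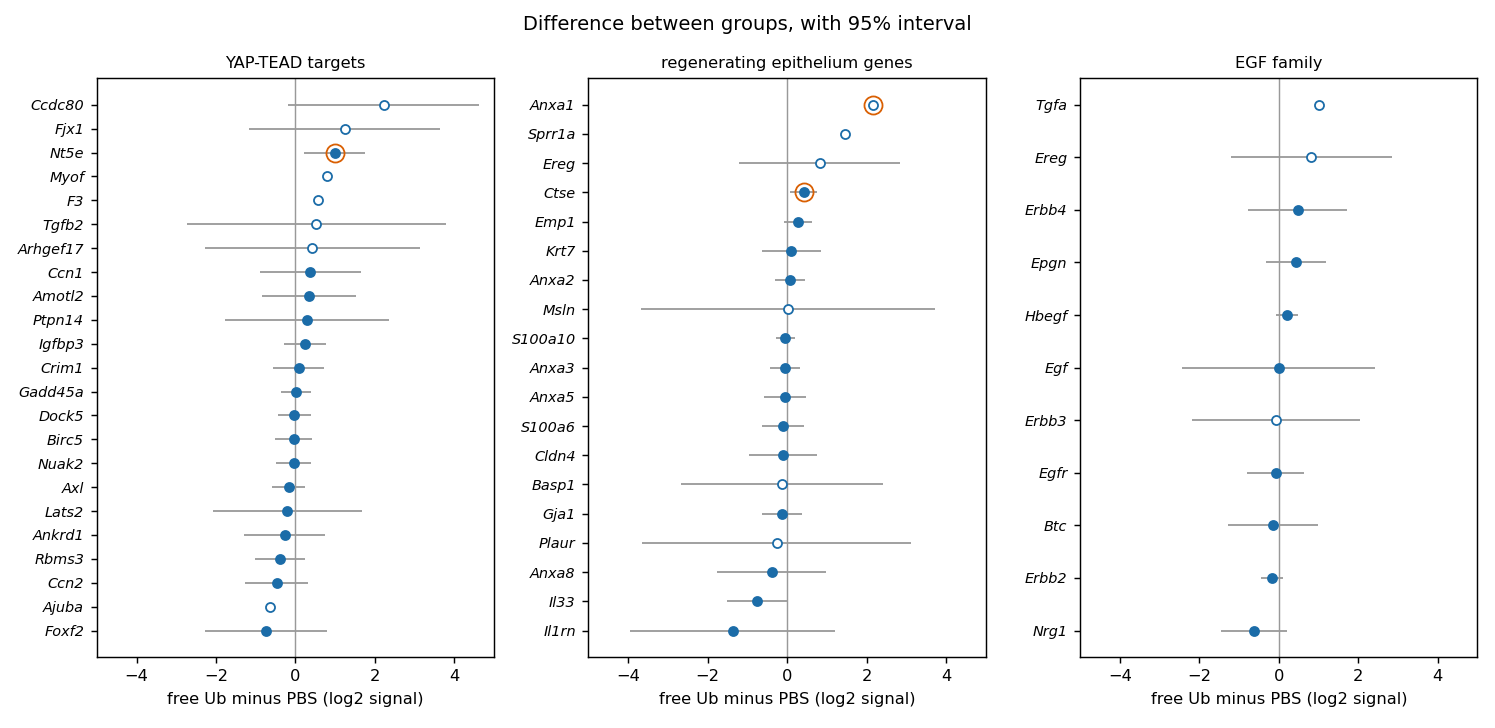
Difference of free Ub minus PBS in log2 signal for YAP-TEAD targets (left), genes of regenerating epithelium (middle) and the EGF family (right), by the brightest probe of each gene. Bars are 95% intervals from limma, open points are genes at the floor on at least 1 array, points without a bar had a whole group at the floor, and orange rings mark an unadjusted p under 0.05. Nt5e, Anxa1 and Ctse carry rings, and most other points lie near 0 with intervals that span it.

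Markers of the cell types in whole intestine were set beside these values. The mean of 12 epithelial markers was 9.46 to 9.82 with PBS and 9.65 to 9.68 with free Ub. The endothelial markers gave 5.27 to 5.66 and 5.01 to 5.44, with 3 of 12 higher, 9 lower and a median difference of -0.19. Of these, Eng (endoglin) and Robo4 were lower at an unadjusted p under 0.05, with differences of -0.56 and -0.46 and no overlap (limma adjusted p = 0.726 and 0.860). Among all named genes, 3.40% were lower at that threshold and 5.02% were lower without overlap.

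The fibroblast markers gave 6.35 to 7.07 with PBS and 6.24 to 6.89 with free Ub, and the smooth muscle markers 6.57 to 8.07 and 7.53 to 7.92. The mean of the T and NK cell markers was 3.28 to 3.61 and 3.28 to 3.78, that of the myeloid markers 3.86 to 5.11 and 4.46 to 4.86, and that of the B and plasma cell markers 3.07 to 3.44 and 3.04 to 3.52. Of the T and NK markers, Prf1 was lower by its brightest probe at an unadjusted p under 0.05 (difference -0.64, limma adjusted p = 0.763). The groups did not overlap for that probe, and its other probe overlapped with a difference of 1.10. No marker list separated the groups by its mean. The PBS samples were the more widely spread in smooth muscle and myeloid signal, and the part of cell makeup in the member values was not tested.

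**Figure D4:**
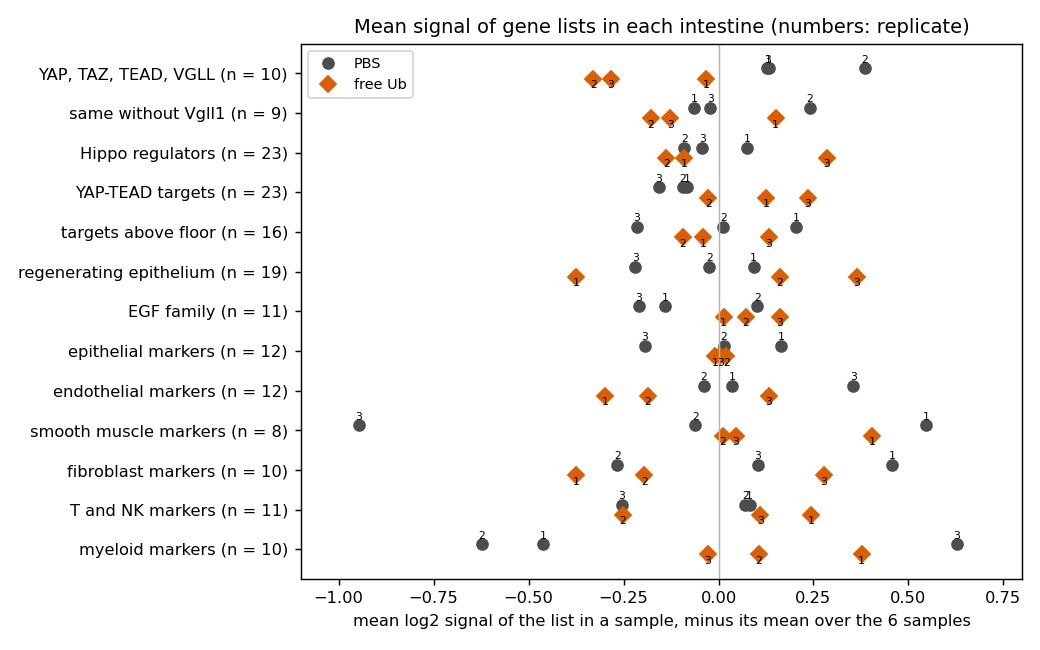
Mean log2 signal of each gene list in each sample, less its mean over the 6 samples, for PBS (dark circles) and free Ub (orange diamonds), with the replicate number at each point. The list for YAP, TAZ, TEAD and VGLL genes separates the groups and no longer does without Vgll1, the YAP-TEAD targets separate and the 16 above the floor do not, and the smooth muscle means of the PBS samples reach from 6.57 to 8.07 before centring.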

How the data were processed

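Intestinal RNA from 6 samples was hybridised to 1 Illumina MouseWG-6 v2 array each. The authors processed the raw signals with cubic-spline normalization in GenomeStudio (version not stated). The deposited values were read as log2, a scale taken from their range, and the background step, the floor and detection p-values are not given in the sources used here. All 6 columns share a median of 2.55 and a highest value of 14.49, and no further normalization was applied.

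Samples were grouped by their labels. Nothing beyond separate sample labels shows separate animals, so p-values measure the spread between these samples. Probes were named by the platform annotation: 34885 have 1 symbol, 18 several and 10378 none listed. The brightest probe by mean stood for each gene. Groups were said not to overlap with floor values treated as equal. Free Ub was compared with PBS in R 4.3.3 with limma 3.58.1 (no covariate, two-sided), with Benjamini-Hochberg adjustment over 45281 probes, after tests on simulated data. An exact permutation test of 3 against 3 cannot go below p = 0.1. The number of arrays limits the precision.

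The members, lists and tests were chosen with earlier results of these data known. Named were the members, up to 4 genes of each pathway list with the smallest p, preset pathway genes, and marker genes that define a list or that the tissue check turned on. Ctse, Nt5e, Wwc2 and Vgll4 fell under this rule. Epgn, Vgll2, Vgll3, Eng, Robo4, Prf1, Cdx2, Krt20, Lgals4 and Krt8 were named after their values were seen. Alternatives were other normalizations, low-value limits, variance models, Student's tests, a replicate block, the mean of a gene's probes and leaving out each sample.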

Additional observations from a re-analysis of the deposited data

How the results depend on the processing

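Across 17 alternatives, 148 of 192 differences of the member genes and of Vgll4, Tead3, Wwc2, Nt5e and Ctse kept their direction and their side of the threshold (an adjusted p of 0.05 for members, an unadjusted p of 0.05 for the others), and 5 turned in sign. The count of members under the adjusted threshold, 1 for Vgll1, was 0 with values under 4 raised to 4, with probes above the median of probe means, with probes above the floor on all 6 arrays, with the replicate block in limma, with the paired Student test and with an intensity trend and robust variances. The 3 limits on low values leave Vgll1 out by construction. It was 1 with each sample left out. Because this contrast chose Vgll1, none of these counts is a test of it. The 2 genes for YAP, TAZ, TEAD and VGLL at an unadjusted p were Vgll4 and Vgll1, the latter chosen on this contrast. The count for this list became 1 under the same 6 settings and under the unpaired Student test. It was 3 with median centring, and 1 to 2 with a sample left out. The 1 Hippo gene, Wwc2, which lost its call with the mean of its probes and with the paired Student test, where the count stayed 1, became 2 with values raised to 4 and 3 with the replicate block in limma, and 1 to 4 with a sample left out. The count of 1 target gene, Nt5e, became 0 with the paired Student test and 0 to 2 with a sample left out. Nt5e also lost its call with the replicate block in limma (unadjusted p = 0.0827), where the count stayed 1. The count of 2 regenerating epithelium genes, Anxa1 and Ctse, became 1 above the median and 1 above the floor on all 6 arrays. In both settings Anxa1 is left out by its dim signal and Ctse lost its call, so the 1 was another gene. The count was 0 with the paired Student test, 4 with array weights and 3 with an intensity trend and robust variances. With each gene's probes averaged it was also 3, although Ctse lost its call. With the replicate block in limma it stayed 2, although Ctse lost its call. With values under 4 raised to 4 it stayed 2, although Anxa1 is left out there. It was 1 to 2 with a sample left out. The EGF family count of 0 became 0 to 3 with a sample left out. Tead4 turned to -0.013 with array weights and -0.48 with the mean of its probes, and ranged from -0.43 to 1.09 with a sample left out. Leaving out a sample moved Amotl2 between -0.085 and 0.65 and Yap1 between -0.15 and 0.013. Of 23 further named genes, 15 kept their sign in every alternative run. Same-numbered samples did not deviate together (correlations of -0.00, 0.02 and -0.09). With 3 samples per group, such correlations cannot exclude that the samples were paired. The causes were not tested. Dim signal limits the member values: 10 of 13 member probes reached the floor.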

Other observations

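The 3 probes of Ctse, the cathepsin E gene, did not move alike across samples. Its brightest probe ranged from 9.27 to 9.98 over the 6 samples. The second read 9.47, 9.56 and 6.72 in PBS replicates 1 to 3 and 9.98, 7.00 and 10.12 in the free Ub replicates, and the third read 7.84, 7.96 and 4.86 with PBS and 8.21, 5.57 and 8.50 with free Ub. Both were lowest in PBS replicate 3 and free Ub replicate 2, samples of different groups, in which the brightest probe read 9.45 and 9.98. What separates the probes was not tested.

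Cdx2, a transcription factor that maintains intestinal identity, was the epithelial marker at an unadjusted p under 0.05. It read 9.86, 9.79 and 9.83 in the PBS replicates and 9.42, 9.67 and 9.57 with free Ub, without overlap, and its limma adjusted p was 0.750.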
